A study of Homo sapiens with 24 samples.

Results

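MAP1B and 9 other genes of microtubule-associated proteins were followed across T-47D cells with or without heregulin (HRG) and with or without silencing of P-Rex1. The genes are MAP1A, MAP1B, MAP1S, MAP2, MAP4, MAP7, MAPT, STMN1, MAPRE1 and DCLK1. A probe set, the group of probes that an array summarises into 1 value, was included when the platform annotation paired it with 1 of these symbols only. This gave 11 probe sets for the 10 genes, of 28536 probe sets on the array, of which 21042 had at least 1 gene symbol and 19292 had a single one. STMN1 had 2 probe sets and every other gene had 1. MAP1B was chosen by its own values on these arrays, a large rise with HRG that differed between the 2 P-Rex1 RNAi duplexes, so its response to HRG is described here with no test.

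T-47D is an established luminal breast cancer cell line that expresses the estrogen receptor, HRG is a growth factor that binds the receptor kinases ErbB3 and ErbB4, and P-Rex1 (gene PREX1) is an exchange factor that activates the small GTPase Rac. Expression was read on 24 arrays (Affymetrix Human Gene 1.0 ST) in 8 groups of 3 biological replicates: parental cells, cells given a non-target control duplex (NTC), and cells given the P-Rex1 RNAi duplex #1 or #2, each with vehicle (PBS) or HRG at 20 ng/ml for 6 h. All cells were serum starved before treatment, the parental cells received no duplex, and each duplex was transfected into the same cell line, so a group stands for 1 line and 1 duplex and not for several lines. The values are log2 expression values, in which a difference of 1 is a 2-fold change.

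Microtubules are polymers of tubulin that give a cell its shape and carry its internal transport. Classical microtubule-associated proteins bind along the polymer and stabilise it, end-binding proteins gather at its growing end, and stathmins bind free tubulin and promote disassembly. MAP1B is best known from growing axons, where it keeps microtubules dynamic, and MAP2 and tau mark the dendrites and axons of neurons, whereas MAP4 and MAP7 are found widely outside neurons, MAP7 mainly in epithelial cells.

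The silenced gene was checked first. PREX1 lay at 10.60 ± 0.02 (SD, n = 3 here and for every group mean) in parental and 10.42 ± 0.09 in NTC cells with vehicle, against 8.99 ± 0.09 with #1 and 9.0 ± 0.03 with #2. It was lower by 2.87-fold with #1 and 2.85-fold with #2 than in the control cells (limma adjusted p = 1.61e-12 and 1.76e-12). HRG itself lowered PREX1, to 9.55 ± 0.08 in parental and 9.45 ± 0.13 in NTC cells, and the levels with HRG were 8.53 ± 0.08 with #1 and 8.73 ± 0.14 with #2.

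The arrays carried the RNA of luminal epithelial cells. All 10 luminal markers, among them the keratins KRT8 and KRT18 and the transcription factor GATA3, lay above the median of the arrays, which was between 6.04 and 6.18. Of 11 neuronal markers 9 lay below that median and 2 of these below the lowest 25% of an array (4.27 to 4.43), while SYT1 and ENO2 lay above it at mean log2 levels of 7.84 and 7.33. Of 11 markers of fibroblasts, leukocytes and endothelial cells, 8 lay below the median and 4 of these below the lowest 25%. COL1A1, LUM and CD68 lay above the median at mean log2 levels of 7.43, 6.56 and 6.51. On the array side, 4 arrays stood apart at the upper end of the second principal component, which held 10.9% of the variance: replicate 3 of parental vehicle, replicate 3 of NTC with HRG, replicate 2 of #1 vehicle and replicate 3 of #2 with HRG. They lay at 11.3 to 17.5 and were named without a numeric rule. At the lower end, replicate 1 of #2 with HRG lay at -11.7 and was not among them.

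The promoters of the MAP1 family are printed because MAP1B and its relatives MAP1A and MAP1S answered HRG differently. Each sequence holds the 250 bases before a RefSeq transcription start, on the plus strand of GRCh38.p14, and capitals mark TATAAA on the sense strand (a TATA box) and GGGCGG on either strand (a GC box).
MAP1B, first start, chr5:72107225-72107474: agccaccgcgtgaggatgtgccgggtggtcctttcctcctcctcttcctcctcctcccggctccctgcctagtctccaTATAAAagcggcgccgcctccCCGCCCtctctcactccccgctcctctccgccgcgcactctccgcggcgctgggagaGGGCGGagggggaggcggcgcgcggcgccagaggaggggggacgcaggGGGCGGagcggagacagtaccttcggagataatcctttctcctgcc
MAP1B, second start, chr5:72179537-72179786: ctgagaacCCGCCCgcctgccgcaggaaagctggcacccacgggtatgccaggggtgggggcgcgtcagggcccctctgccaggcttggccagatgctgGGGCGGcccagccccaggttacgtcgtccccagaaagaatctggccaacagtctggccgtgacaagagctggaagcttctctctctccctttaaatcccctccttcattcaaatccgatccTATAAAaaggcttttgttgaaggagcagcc
MAP1A, first start, chr15:43510704-43510953: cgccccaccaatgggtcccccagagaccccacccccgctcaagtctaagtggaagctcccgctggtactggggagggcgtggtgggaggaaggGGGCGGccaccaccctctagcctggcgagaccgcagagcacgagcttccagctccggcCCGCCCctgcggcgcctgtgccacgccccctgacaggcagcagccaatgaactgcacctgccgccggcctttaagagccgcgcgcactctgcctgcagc
MAP1S, chr19:17719230-17719479: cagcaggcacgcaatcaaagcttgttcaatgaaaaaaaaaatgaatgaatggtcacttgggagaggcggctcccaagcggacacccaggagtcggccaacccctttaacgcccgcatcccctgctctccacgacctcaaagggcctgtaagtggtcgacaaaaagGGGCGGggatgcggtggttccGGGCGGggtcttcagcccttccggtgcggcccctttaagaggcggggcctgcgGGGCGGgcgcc
Both MAP1B sequences held the letters TATAAA, which ended 166 bases before the first start and 24 bases before the second. The MAPRE1 promoter, not shown here, held them too, ending 85 bases before its start. Whether these letters act in any of the promoters was not tested. TATAAA was found in 6.8% of the 35116 promoters of the same length and in neither sequence of MAP1A or MAP1S shown here. GC boxes numbered 3 and 2 in the MAP1B sequences, 2 in that of MAP1A and 3 in that of MAP1S, against 42.6% of all promoters with at least 1. The letters TGANTCA of an AP-1 site (6.57% of all promoters) and GGAATG of a TEAD site (11.9%), each searched on both strands, were in none of the 4 sequences, which speaks only of these letters in these windows. G and C made up 70.0% and 60.4% of the bases of the MAP1B promoters, against a median of 58.0% over all promoters.

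MAP1B rose with HRG by a little over 5-fold in control cells and by 2.00-fold in cells with #2. In parental cells its log2 level was 4.88, 5.20 and 5.48 with vehicle and 7.38, 7.69 and 7.82 with HRG. In NTC cells the arrays gave 5.19, 5.40 and 5.48 with vehicle and 7.64, 7.79 and 7.81 with HRG. Every HRG array of the control cells lay above every vehicle array, with a gap of 1.90 between the nearest parental arrays and of 2.16 between the nearest NTC arrays.
With #1, MAP1B gave 5.20, 5.45 and 5.49 with vehicle and 7.45, 7.57 and 7.81 with HRG. With #2, it gave 5.04, 5.06 and 5.46 with vehicle and 6.08, 6.18 and 6.31 with HRG. The HRG arrays with #1 overlapped those of both control cells, whereas the 3 HRG arrays with #2 lay below all 9 other HRG arrays and above all 12 vehicle arrays.

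**Figure D1:**
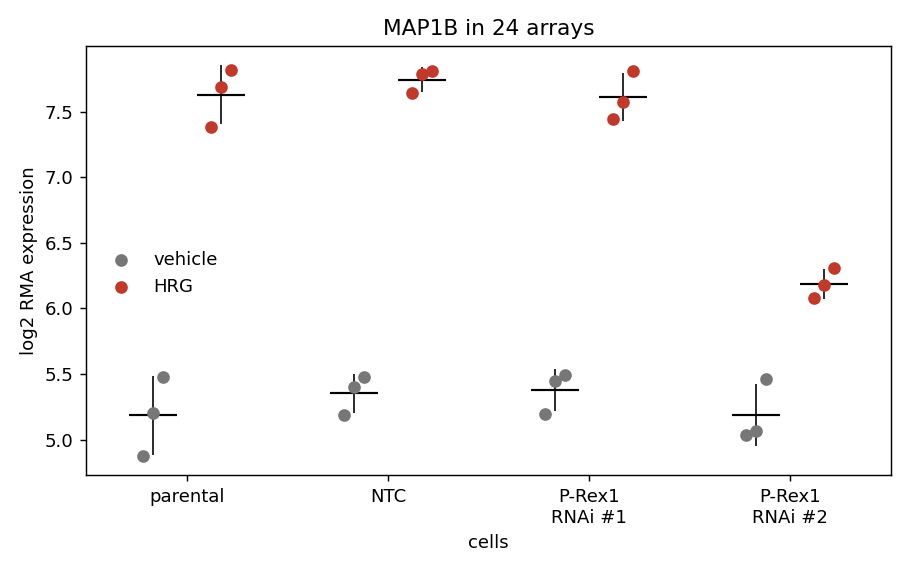
MAP1B log2 expression in each of the 24 arrays (points) by cells and treatment, with the mean (horizontal bar) and SD (vertical bar) of the 3 arrays of a group. The vehicle groups overlap between 4.88 and 5.49, the HRG groups of parental, NTC and #1 cells overlap between 7.38 and 7.82, and the HRG group of #2 sits between them at 6.08 to 6.31.

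The HRG effect on MAP1B was 2.44 on the log2 scale in parental cells, 2.39 in NTC cells, 2.23 with #1 and 1.00 with #2, each with an SE of 0.14. These are folds of 5.43, 5.24, 4.69 and 2.00. The effect with #1 was 92.4% of the mean effect in the control cells on the log2 scale, and the effect with #2 was 41.4% of it. The difference from the mean control effect was -0.18 (SE 0.17) with #1 and -1.41 (SE 0.17) with #2, and #2 differed from #1 by -1.23 (SE 0.20). Both differences from the control effect share the control arrays, and the values were the reason MAP1B was chosen, so they carry no test.

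Among the 19292 single-symbol probe sets, the rise of MAP1B ranked 6th in parental cells, 9th in NTC cells, 6th with #1 and 36th with #2. Counted from the most negative, its change of the HRG effect ranked 9th with #2 and 2381st with #1. In parental cells MAP1B moved from above 37.3% of all probe sets with vehicle to above 68.4% with HRG, and with #2 it reached a level above 51.4%.

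Ordered by mean, the 4 vehicle groups of MAP1B came first and overlapped each other, from parental (5.19 ± 0.30) and #2 (5.19 ± 0.24) to NTC (5.35 ± 0.15) and #1 (5.38 ± 0.16). The HRG group of #2 followed at 6.19 ± 0.11, a step of 0.81 without overlap. After a second step of 1.42, also without overlap, came the HRG groups of #1 (7.61 ± 0.19), parental (7.63 ± 0.22) and NTC cells (7.74 ± 0.09), which overlapped each other. Without HRG the difference between silenced and control cells was 0.11 with #1 and -0.08 with #2, each with an SE of 0.12. NTC cells did not pass the test against parental cells either with vehicle (0.17, limma adjusted p = 0.928) or with HRG (0.12, adjusted p = 0.765).

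In all 8 groups the array numbered 1 was the lowest for MAP1B and the array numbered 3 the highest. The main model ignored these numbers. With the replicate number entered in the model, the SE of the HRG effect on MAP1B in parental cells was 0.07 instead of 0.14. The array left out moved the HRG effect of MAP1B between 2.29 and 2.59 in parental cells and between 0.92 and 1.14 with #2, and its change with #2 between -1.49 and -1.28. The change with #1 was less stable, between -0.28 and -0.10. It was -0.28 without replicate 3 of #1 with HRG, -0.10 without replicate 1 of the same group and -0.11 without replicate 1 of parental vehicle. In bulk RNA, a change in the share of cells that express a gene and a change in the RNA per cell cannot be told apart. The summed level of the markers of fibroblasts, leukocytes and endothelial cells also rose with HRG, from 9.01 to 9.15 over the parental vehicle arrays to 9.28 to 9.51 over the HRG arrays, and with #2 from 8.90 to 8.94 with vehicle to 9.02 to 9.13 with HRG. LUM and CD68 were the members of that list that rose in parental cells, and DCN and PTPRC were below the lowest 25% of the arrays. The sum weighs bright members most, and COL1A1 was the brightest (7.43). With #2 without HRG, 1 of the 11 was lower past both thresholds, beside 0.181% of all probe sets in either direction. The largest difference in the list there was 1.29. The part of this list in the MAP1B values was not tested.

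The 9 other genes all moved by less than 1.5-fold. Their median absolute log2 HRG effect was 0.27 in parental cells, 0.26 in NTC cells, 0.23 with #1 and 0.20 with #2. Over all probe sets tested it was 0.12, 0.13, 0.13 and 0.09. None passed an adjusted p under 0.05 together with a fold above 1.5 in any of the 11 comparisons made with limma. For HRG, 5.27% of the probe sets tested passed both in parental cells, 6.01% in NTC cells, 3.67% with #1 and 1.73% with #2. At such shares, 0 of 9 genes does not set the 9 apart from other probe sets. In the other 7 comparisons the share of all probe sets past both thresholds was 0.0285% for #1 and 0.181% for #2 without HRG, 0% for NTC against parental cells with either treatment, 0.171% and 0.779% for the change of the HRG effect with #1 and #2, and 0.0618% for #2 against #1. At an unadjusted p under 0.05, 6 of the 9 genes passed for HRG in parental cells (38% of all probe sets), 6 in NTC cells (39.2%), 5 with #1 (38%) and 6 with #2 (26.2%). By Rank Products at a p under 0.005 and with no fold required, 6 genes passed in parental cells, 4 in NTC cells, 4 with #1 and 3 with #2, where 20.8%, 21.2%, 19.5% and 16.4% of all probe sets passed. Rank Products here set every HRG array against every vehicle array and treated the differences as independent. These differences share arrays, so the p-values of Rank Products run too small. The largest changes were a 1.41-fold fall of MAP1A in parental cells and a 1.42-fold rise of MAP4 in NTC cells.

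With no fold required, HRG raised 5 of the 9 genes and lowered 1 in parental cells at an adjusted p under 0.05, where 30.8% of all probe sets tested passed, 13.5% higher and 17.3% lower. In NTC cells 4 genes rose and 1 fell (31.2% of all probe sets passed, 13.6% higher and 17.6% lower). With #1 again 4 rose and 1 fell (27.3%, 14.9% higher and 12.4% lower), and with #2 3 rose and 1 fell (15.8%, 8.2% higher and 7.64% lower). The median log2 difference of the 9 genes was 0.27 in parental cells, 0.26 in NTC cells, 0.16 with #1 and -0.10 with #2, beside medians of -0.03, 0.03, -0.03 and -0.01 over all probe sets tested. The arrays with and without HRG did not overlap for 7 of the 9 genes in parental cells, 6 in NTC cells, 5 with #1 and 6 with #2, while this held for 40.9%, 47.4%, 39.6% and 27.2% of all probe sets.

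**Figure D2:**
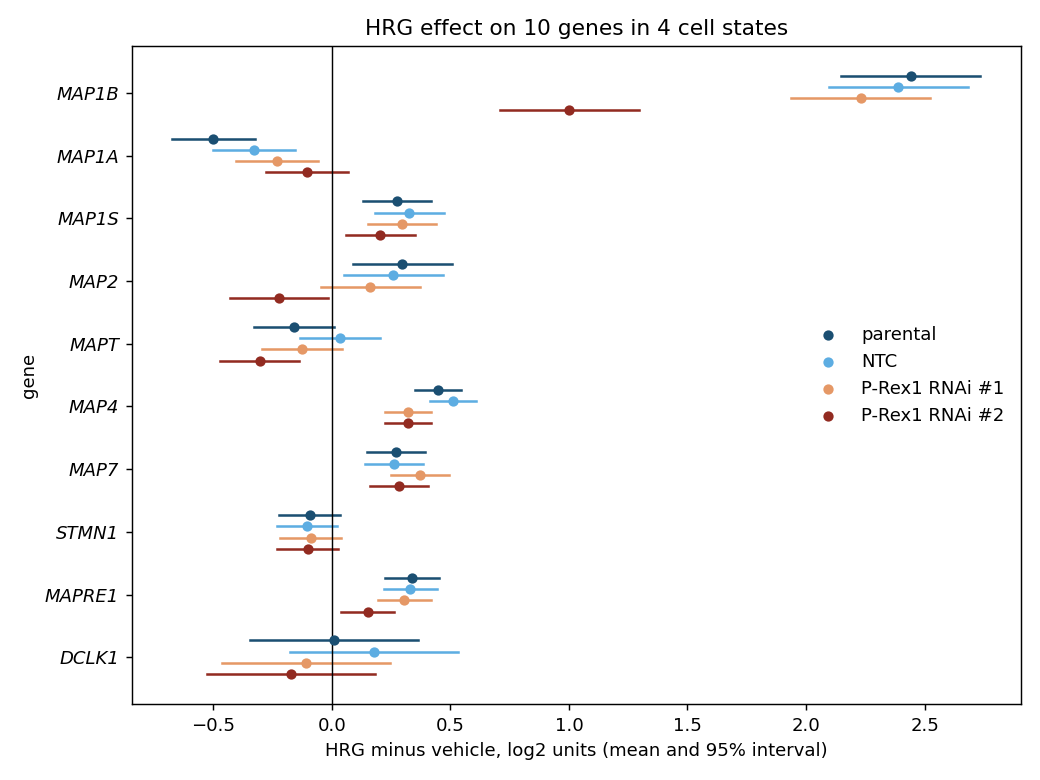
HRG effect (log2, HRG minus vehicle) of each gene in parental and NTC cells and with P-Rex1 RNAi #1 or #2, with 95% confidence intervals from limma. MAP1B stands apart at 1.00 to 2.44, MAP4, MAP7 and MAP1S lie above 0 in all 4 kinds of cells, MAP1A lies below 0, and MAP2 changes sign between the control cells (0.30 and 0.26) and #2 (-0.22).

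MAP1A, the MAP1 family member of mature neurons, moved opposite to MAP1B. Its parental arrays gave 6.28, 6.32 and 6.51 with vehicle and 5.78, 5.82 and 6.01 with HRG. MAP1A fell by 0.50 in parental cells (SE 0.08, limma adjusted p = 6.53e-05), by 0.33 in NTC cells (adjusted p = 0.00378) and by 0.23 with #1 (adjusted p = 0.044). The HRG and vehicle arrays did not overlap in these 3 kinds of cells. With #2 the arrays overlapped (6.13, 6.14 and 6.35 with vehicle, 6.00, 6.10 and 6.20 with HRG), and the difference of -0.11 did not pass (adjusted p = 0.502). The change of the HRG effect on MAP1A with #2 was 0.31 (95% interval 0.10 to 0.52, adjusted p = 0.103), so a difference from the control cells was not shown. The call with #1 was lost without replicate 2 or 3 of #1 vehicle (adjusted p = 0.0774 and 0.145) and without replicate 2 or 3 of #1 with HRG (0.104 and 0.183).

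MAP1S, the broadly expressed short member of the family, rose slightly. Its parental arrays gave 6.77, 6.98 and 7.0 with vehicle and 7.11, 7.18 and 7.27 with HRG, which did not overlap. The rise was 0.27 in parental cells (SE 0.07, adjusted p = 0.00378), 0.33 in NTC cells (adjusted p = 0.000794), 0.30 with #1 (adjusted p = 0.00271) and 0.20 with #2 (adjusted p = 0.0497). The call with #2 was lost whichever of its 6 arrays was left out, with adjusted p from 0.0542 to 0.191.

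MAP2, the dendritic relative of tau, was the 1 gene of the 9 whose response to HRG passed the test of a change with #2. Its #2 arrays gave 7.44, 7.50 and 7.50 with vehicle and 7.24, 7.26 and 7.27 with HRG. The parental arrays gave 7.31, 7.45 and 7.53 with vehicle and 7.63, 7.72 and 7.83 with HRG. With #2 all HRG arrays thus lay below the vehicle arrays, and in parental cells all lay above them. NTC cells gave 7.09, 7.19 and 7.41 with vehicle and 7.36, 7.46 and 7.64 with HRG, and cells with #1 gave 6.97, 7.20 and 7.45 against 7.25, 7.41 and 7.45. In both of these the arrays overlapped.

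The HRG effect on MAP2 was 0.30 in parental cells (SE 0.10, limma adjusted p = 0.0272), 0.26 in NTC cells (adjusted p = 0.0551), 0.16 with #1 (adjusted p = 0.249) and -0.22 with #2 (adjusted p = 0.153). The change of the effect with #2 against the mean of parental and NTC cells was -0.50 (SE 0.12, adjusted p = 0.0216), a comparison in which 3.94% of all probe sets tested passed and 1 of the 9 genes did. At an unadjusted p under 0.05, 5 of the 9 genes passed in it, beside 15.6% of all probe sets. Against NTC cells alone it was -0.48 (adjusted p = 0.0765). It was also lost without replicate 1 or 2 of #2 vehicle (adjusted p = 0.0501 and 0.0639) or replicate 1 of #2 with HRG (0.0502). With #1 the change was -0.12 (95% interval -0.37 to 0.14, adjusted p = 0.62), and the difference between the duplexes was -0.39 (adjusted p = 0.518), so a difference between them was not shown. The parental call of MAP2 was lost without replicate 3 of parental vehicle (adjusted p = 0.132) or replicate 1 or 2 of parental cells with HRG (0.056 and 0.125).

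MAPT, the gene of tau, the axonal microtubule protein, passed the test with #2 alone among the 4 kinds of cells. Its #2 arrays gave 6.75, 6.92 and 7.04 with vehicle and 6.56, 6.57 and 6.66 with HRG, without overlap. MAPT fell by 0.31 with #2 (SE 0.08, adjusted p = 0.011), and by 0.16 in parental cells without passing (adjusted p = 0.152). The effect with #2 did not pass the test of its difference from the control cells (-0.24, adjusted p = 0.211), and the fall was lost without replicate 1 of #2 vehicle (adjusted p = 0.0803).

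MAP4, the main structural microtubule-associated protein outside neurons, had the smallest adjusted p of the 9 genes. Parental arrays gave 7.66, 7.68 and 7.68 with vehicle and 8.06, 8.10 and 8.21 with HRG. NTC arrays gave 7.62, 7.62 and 7.64 with vehicle and 8.12, 8.15 and 8.15 with HRG. Arrays of #2 gave 7.47, 7.53 and 7.58 with vehicle and 7.81, 7.87 and 7.87 with HRG, and in none of the 4 kinds of cells did the 2 treatments overlap. MAP4 rose by 0.45 in parental cells (SE 0.05, adjusted p = 1.25e-07), 0.51 in NTC cells (adjusted p = 1.87e-08), 0.32 with #1 (adjusted p = 1.91e-05) and 0.32 with #2 (adjusted p = 4.15e-05). The rise was smaller by 0.16 with either duplex than in the control cells, which did not pass the test (adjusted p = 0.147 with #1 and 0.137 with #2). The 2 duplexes differed by 0.00 (95% interval -0.14 to 0.14).

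MAP7, which recruits the motor kinesin-1 to microtubules of epithelial cells, rose in all 4 kinds of cells. Its parental arrays gave 7.85, 7.92 and 8.0 with vehicle and 8.12, 8.20 and 8.27 with HRG. Arrays of #1 gave 7.94, 7.94 and 8.01 with vehicle and 8.25, 8.34 and 8.40 with HRG. In both kinds of cells the treatments did not overlap, and the HRG arrays of #1 had the highest mean of the 8 groups. The rise was 0.27 in parental cells (SE 0.06, adjusted p = 0.00108), 0.26 in NTC cells (adjusted p = 0.00135), 0.37 with #1 (adjusted p = 5.52e-05) and 0.28 with #2 (adjusted p = 0.00157). It did not pass the test of a change with #1 (0.10, adjusted p = 0.433) or with #2 (0.02, adjusted p = 0.942).

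MAPRE1, the gene of the end-binding protein EB1, which follows growing microtubule ends, rose in control cells and with #1. Parental arrays gave 10.94, 10.94 and 11.01 with vehicle and 11.29, 11.29 and 11.32 with HRG. Arrays of #2 gave 10.99, 11.02 and 11.03 with vehicle and 11.14, 11.16 and 11.20 with HRG. The treatments did not overlap in any of the 4 kinds of cells, and the gap was narrowest with #2. The rise was 0.34 in parental cells (SE 0.05, adjusted p = 3.9e-05), 0.33 in NTC cells (adjusted p = 4.73e-05) and 0.30 with #1 (adjusted p = 0.000179), while the difference of 0.15 with #2 did not pass (adjusted p = 0.0639). That difference passed with the replicate number as a block (adjusted p = 0.0458), without the 4 arrays that stood apart (0.0379) and with an intensity trend (0.0269). The change with #2 was -0.18 (95% interval -0.32 to -0.05, adjusted p = 0.14).

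STMN1, the gene of stathmin, which binds free tubulin, did not pass in any comparison. Its brighter probe set ranged from 10.29 to 10.67 over the 24 arrays, and its HRG effect was -0.09 or -0.10 in each kind of cells (adjusted p from 0.218 to 0.321). The second STMN1 probe set was dim, from 4.72 to 5.12, and its HRG effects were all above 0, from 0.03 with #1 to 0.19 in NTC cells (adjusted p from 0.0694 to 0.854), so the 2 probe sets differed in sign without either passing.

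DCLK1, a doublecortin-like kinase that binds microtubules, was near the background of the arrays. Its log2 values ran from 3.77 to 4.63, and its group means were above no more than 23.6% of all probe sets. Its HRG effect ran from -0.17 with #2 to 0.18 in NTC cells, each with an SE of 0.17 (adjusted p from 0.485 to 0.977), and the treatments overlapped in all 4 kinds of cells.

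**Figure D3:**
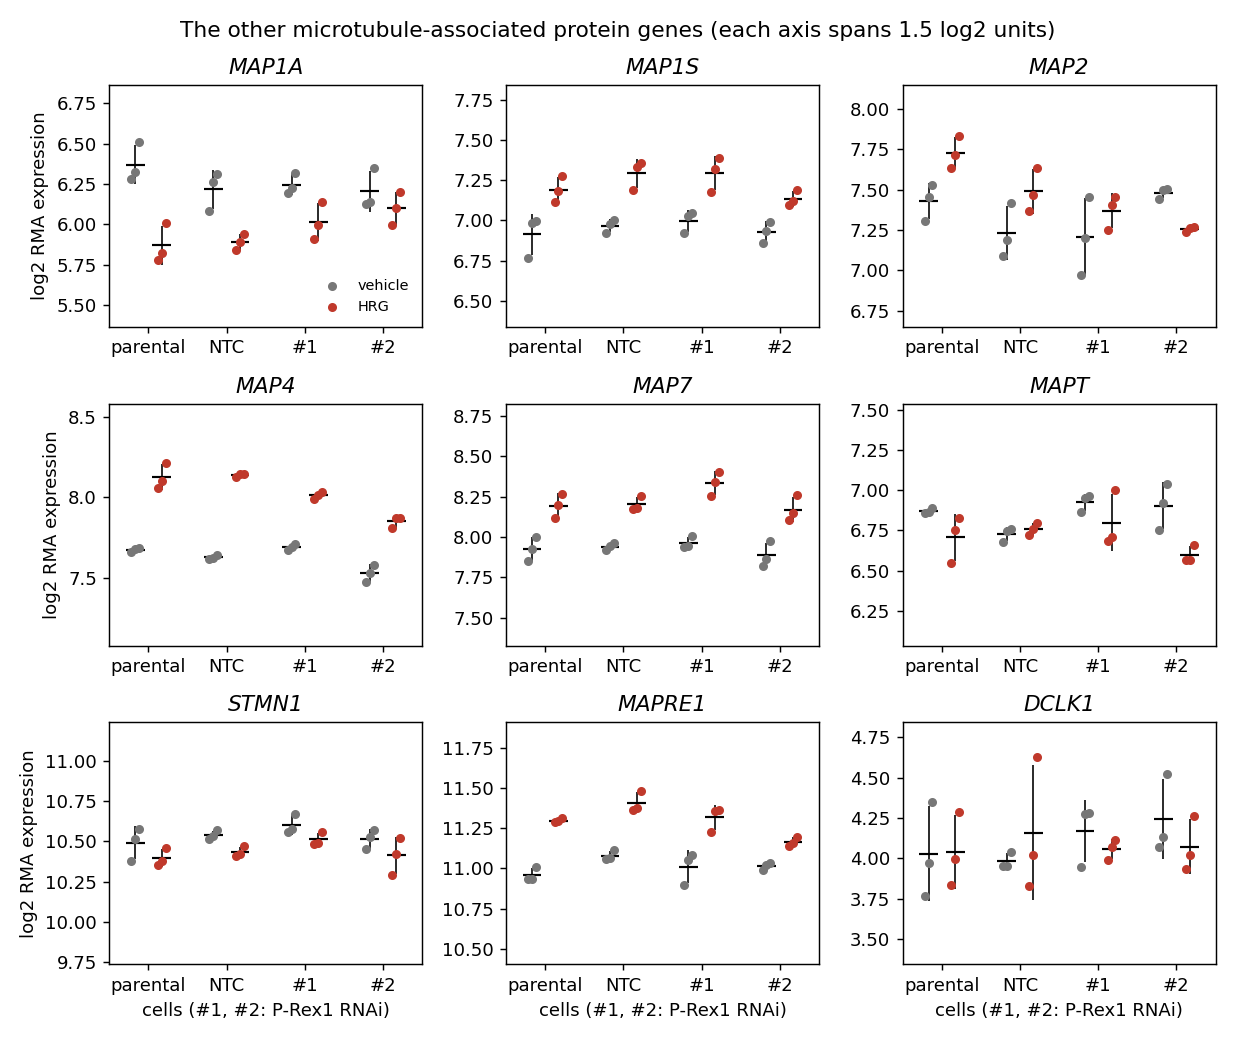
Log2 expression of the 9 other genes in each array (points) by group, with the mean (horizontal bar) and SD (vertical bar) of the 3 arrays. Each panel has its own axis, since levels of different probe sets are not compared. MAP4 and MAP7 are separated between vehicle and HRG in all cells, MAP2 is separated in opposite directions in parental cells and with #2, and STMN1 and DCLK1 overlap in most.

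Without HRG, none of the 9 genes passed with either duplex against the control cells, also with no fold required. In these comparisons 0.665% of all probe sets passed with #1 and 3.35% with #2, and at an unadjusted p under 0.05 limma passed 0 and 1 of the 9 genes, beside 11.8% and 13.7% of all probe sets. The 1 gene was MAP4, which was chosen for mention after its value was seen, at -0.12 with #2 (SE 0.04, adjusted p = 0.119). NTC and parental cells did not differ in any of the 9 genes at an adjusted p under 0.05, with or without HRG (0.0095% and 0% of all probe sets passed), and 1 gene passed at an unadjusted p under 0.05 in each, beside 5.72% and 9.65% of all probe sets: MAPRE1 with vehicle (0.12, adjusted p = 0.858) and MAP2 with HRG (-0.24, adjusted p = 0.468). For the change of the HRG effect with #1, in which 1.16% of all probe sets passed, none of the 9 genes passed and 1 did at an unadjusted p under 0.05, beside 18.9% of all probe sets. For the difference between the duplexes, in which 0.0665% passed, none passed and again 1 did unadjusted, beside 7.49% of all probe sets.

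Across the 24 arrays, MAP4 followed MAP1B with a Pearson r of 0.96, MAPRE1 with 0.94, MAP1S with 0.91 and MAP7 with 0.87, and MAP1A ran opposite with -0.84. MAP2 gave 0.39, MAPT -0.33, the brighter STMN1 probe set -0.48 and DCLK1 0.05. The points share the HRG treatment and the array processing, so these are descriptions over 24 arrays in 8 groups. Among 461 other single-symbol probe sets whose group means spanned at least 1 log2 unit, the 8 most like MAP1B were PFKP (r = 0.981), GPRC5A (0.981), OPN3 (0.977), CHD5 (0.976), IDS (0.976), UPP1 (0.976), LMO7 (0.975) and RAP2B (0.975), and the 9th was at 0.975 too, so this order has no sharp end.

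PFKP encodes a phosphofructokinase of glycolysis, GPRC5A an orphan receptor, and LMO7 an adaptor of cell junctions. The rise of PFKP was 1.37 in parental cells, 1.38 in NTC cells, 1.12 with #1 and 0.90 with #2. GPRC5A rose by 1.62, 1.63, 1.67 and 1.06 in the same order. LMO7 rose by 1.43, 1.32, 1.30 and 0.56. Each of the 8 genes, picked for their likeness to MAP1B, had its lowest HRG effect with #2, from 0.33 for RAP2B to 1.06 for GPRC5A, and none rose as much as MAP1B in the control cells.

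**Figure D4:**
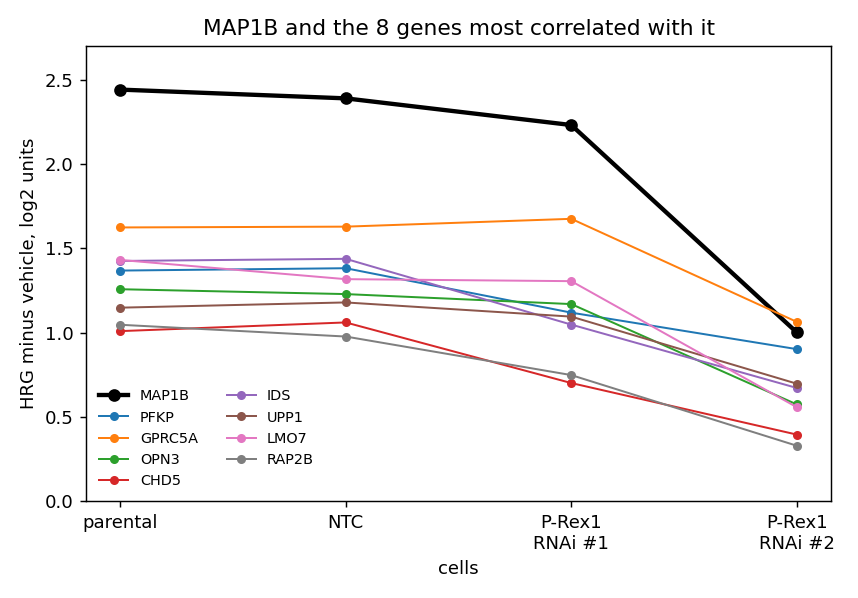
HRG effect (log2, HRG minus vehicle) of MAP1B and of the 8 single-symbol genes whose levels correlated best with it over 24 arrays, in parental and NTC cells and with P-Rex1 RNAi #1 or #2. All 9 genes have their lowest value with #2, and MAP1B runs from 2.44 and 2.39 in the control cells to 1.00 with #2. MAP1B was chosen for this difference and the 8 genes for their likeness to it, so the shared shape follows from the choice.

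Other genes of the microtubule system were read from 7 lists that leave out the 10 genes. Tubulins, the building blocks of the polymer, gave 4 of 16 measured genes that rose more than 1.5-fold with HRG in parental cells at an adjusted p under 0.05, and none that fell, where 2.86% of all probe sets rose and 2.41% fell. The 4 were TUBB2A (1.65-fold, adjusted p = 5.1e-05), TUBB6 (1.60-fold), TUBB2B (1.60-fold) and TUBA4A (1.57-fold). TUBB2A, TUBB6, TUBB2B and TUBA4A rose in NTC cells too, by 1.86-fold to 2.01-fold (2.64% of all probe sets rose and 3.37% fell), and with #1, by 1.52-fold to 1.64-fold (2.52% rose and 1.15% fell). No tubulin passed both thresholds with #2, where 1.07% of all probe sets rose and 0.656% fell. At an adjusted p under 0.05 alone, 8 of the 16 were higher in parental cells, 7 in NTC cells, 8 with #1 and 6 with #2. The shares of all probe sets that were higher were 13.5%, 13.6%, 14.9% and 8.2%. In parental cells 1 tubulin was lower, beside 17.3% of all probe sets. Without the 4 arrays that stood apart, 2 of the 4 tubulins passed both thresholds with #1. TUBB2A and TUBB2B are nearly identical in sequence, so their probes may not separate them. TUBB2B was the tubulin whose response changed with #2 (-0.75, adjusted p = 0.0115), and TUBA1A was lower with #2 without HRG (-0.59, adjusted p = 0.0008, with 0.181% of all probe sets past both thresholds).

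Of 23 proteins of the plus and minus ends, 2 rose past both thresholds in parental cells and none fell past them. Of all probe sets 2.86% rose and 2.41% fell so. The 2 were MACF1, a linker of microtubule ends to actin, and CLIP1, the gene of the plus-end protein CLIP-170. They rose by 1.84-fold and 1.62-fold (adjusted p = 4.07e-11 and 1.6e-08). At an adjusted p under 0.05 alone, 9 of the 23 were higher and 5 lower, beside 13.5% and 17.3% of all probe sets. MACF1 and CLIP1 rose by 1.73-fold and 1.58-fold in NTC cells (2.64% of all probe sets rose), and did not reach 1.5-fold with #1 (1.32 and 1.35) or #2 (1.18 and 1.16). The change of the HRG effect with #2 was -0.60 for MACF1 (adjusted p = 1.11e-05) and -0.47 for CLIP1 (adjusted p = 0.000728), and with #1 it was -0.44 for MACF1 (adjusted p = 0.00336) and -0.24 for CLIP1 (adjusted p = 0.115). DST, another linker of cytoskeletal polymers, fell with #1 (1.53-fold) and #2 (1.54-fold), where 1.15% and 0.656% of all probe sets fell. The HRG effect on DST did not pass the test of a change with either duplex at an adjusted p under 0.05. A difference of DST from the control cells was thus not shown.

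Of 27 genes for tubulin folding, modification and severing, 4 fell past both thresholds in parental cells and none rose past them. Of all probe sets 2.41% fell and 2.86% rose so. At an adjusted p under 0.05 alone, 10 of the 27 were lower and 5 higher, beside 17.3% and 13.5% of all probe sets. The 4 were KATNAL2, a relative of the severing enzyme katanin (2.32-fold, adjusted p = 5.05e-10), VASH2, which removes the terminal tyrosine of tubulin (1.64-fold), and the glutamylases TTLL1 (1.62-fold) and TTLL5 (1.51-fold). KATNAL2 fell in all 4 kinds of cells, by 2.82-fold in NTC cells, 1.88-fold with #1 and 1.68-fold with #2. Its fall was smaller with #2 than in the control cells (change 0.60, adjusted p = 0.00147). With #1 its change was 0.44, the largest of the list. At an adjusted p under 0.05, 1 of the 27 passed the test of a change with #1, beside 1.16% of all probe sets. Without the 4 arrays that stood apart 0 of the 27 passed it. In NTC cells 5 of the 27 fell past both thresholds, with #1 2 and with #2 1, where 3.37%, 1.15% and 0.656% of all probe sets fell.

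Of 14 microtubule-associated proteins of the mitotic spindle, 13 were lower with HRG in parental cells at an adjusted p under 0.05 and none was higher, where 17.3% of all probe sets were lower. The median log2 difference of the 14 was -0.42 against -0.03 over all probe sets. NUMA1, which organises the spindle poles (2.07-fold, adjusted p = 1.82e-12), and SPAG5, the gene of astrin (1.54-fold), passed the fold as well, as 2.41% of all probe sets did downward. In NTC cells all 14 were lower (17.6% of all probe sets) and 5 passed the fold (3.37%), or 3 without the 4 arrays that stood apart. With #1, 7 were lower (12.4% of all probe sets) and 1 passed the fold (1.15%), and with #2, 11 were lower (7.64%) and none passed it (0.656%). NUMA1 fell less with #2 than in the control cells (change 0.47, adjusted p = 6.2e-05) and also with #1 (0.32, adjusted p = 0.0203). At an adjusted p under 0.05, 3 of the 14 passed this test with #2 and 2 with #1, beside 3.94% and 1.16% of all probe sets. The change of NUMA1 with #1 was lost without the 4 arrays that stood apart, where 0 of the 14 passed.

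The remaining lists held few calls. Of all probe sets, 13.5% were higher and 17.3% lower in parental cells at an adjusted p under 0.05, and 2.41% fell past both thresholds there, 3.37% in NTC cells, 1.15% with #1 and 0.656% with #2. Among 19 other lattice-binding proteins, relatives of the genes above, none passed both thresholds in parental cells, 1 was higher and 3 were lower at an adjusted p under 0.05, and the median was -0.00. MTUS1 fell in NTC cells (1.52-fold, adjusted p = 6.86e-05) and with #1 (1.53-fold), and MID1, a ubiquitin ligase on microtubules, fell with #2 (1.52-fold, adjusted p = 3.05e-05). The NTC call of MTUS1 and the call of MID1 were lost without the 4 arrays that stood apart. Among 7 other stathmins and doublecortins none passed both thresholds in parental cells and 1 was lower at an adjusted p under 0.05, while DCDC2 fell in NTC cells (1.64-fold, adjusted p = 6.1e-05) and with #2 (1.52-fold). At an adjusted p under 0.05 alone, 1 of the 7 was lower in each of the 4 kinds of cells. Of all probe sets, 17.3%, 17.6%, 12.4% and 7.64% were lower there. In NTC cells 1 of the 7 was also higher, beside 13.6% of all probe sets. No gene of this list or the lattice-binding list passed the test of a change with either duplex. Of all probe sets 1.16% passed it with #1 and 3.94% with #2. The call of DCDC2 with #2 was lost without the same 4 arrays, and 1 of the 7 then fell past both thresholds with #1. Among 12 kinases of microtubule-associated proteins, CDK5, a kinase of tau, fell in parental cells (1.54-fold, adjusted p = 0.00178), a call that was also lost without those arrays, and in NTC cells (1.51-fold, adjusted p = 0.00239), where 1 of the 12 kinases fell past both thresholds without those arrays too.

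**Figure D5:**
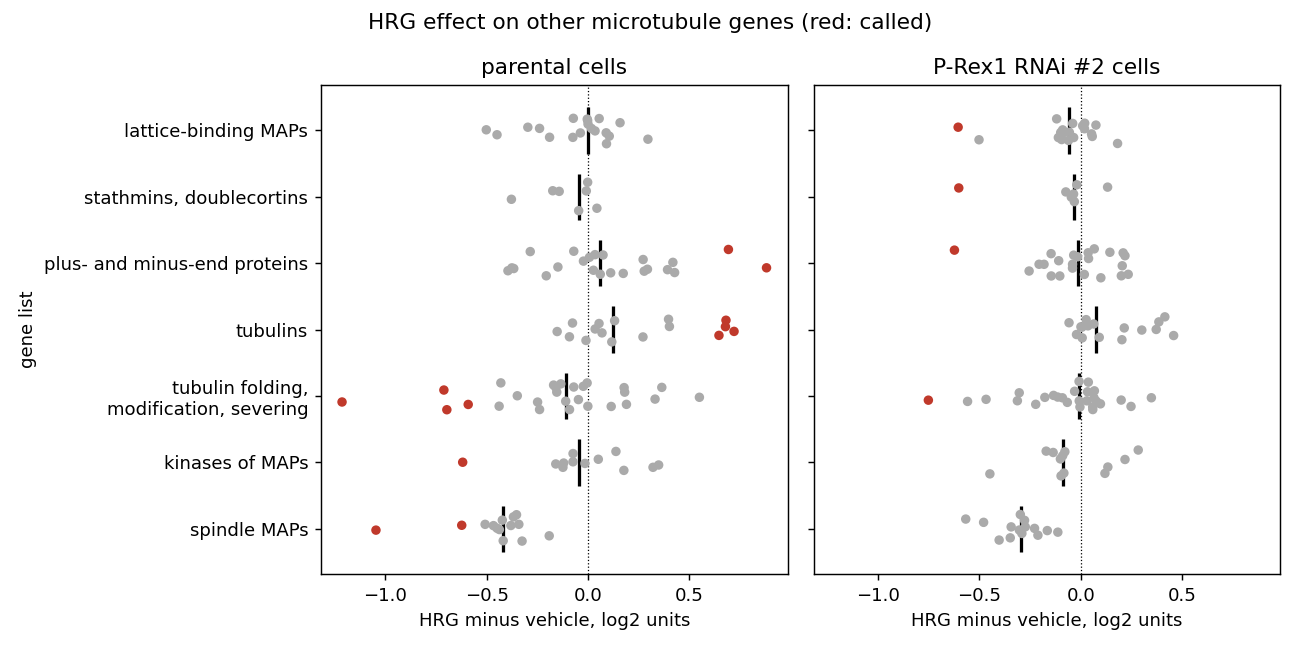
HRG effect (log2, HRG minus vehicle) of each measured gene (points) of the 7 microtubule lists, with the 10 genes of the report left out, in parental cells (left) and with P-Rex1 RNAi #2 (right), with the median of each list as a bar and genes past both thresholds in red. Spindle genes lie below 0 in parental cells (median -0.42), 4 tubulins are red to the right of 0, and KATNAL2 is the lowest point of the folding, modification and severing list at -1.21.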

How the data were processed

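RNA of 24 arrays of T-47D cells was measured, 3 biological replicates in each of 8 groups, which were taken from the sample titles. The authors deposited log2 expression values of 28536 probe sets, made with RMA per the submitters' processing notes. RMA corrects for background, gives every array the same distribution of values and combines the probes of a set. The methods name the simpleaffy package, and no version of it is stated in the sources. Columns were assigned to samples through their names, and 0 per-sample columns were left unused. The number of arrays limits the precision, and fold changes of dim probe sets are compressed by RMA.

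All 24 arrays entered 1 linear model with a mean per group in limma 3.58.1 (R 4.3.3, statmod 1.5.0). It was fitted to the 21042 probe sets with a symbol, and p-values were adjusted over all of them by Benjamini-Hochberg. Calls needed an adjusted p under 0.05 and a fold above 1.5, and counts with no fold required are given as such. A probe set with several symbols (1750 of them) named no gene, and a gene with several probe sets was read from the brightest. The change of the HRG effect with a duplex is its HRG effect minus the mean of those in parental and NTC cells. Genes named beside the 10 are the silenced gene, the 8 most correlated with MAP1B and some markers of cell types. From the microtubule lists those past both thresholds for HRG in parental cells are named. Some list genes past them in other comparisons are named too, and the rest are only counted. The 10 genes, the lists and the tests were chosen with earlier results of these data known. The deviations of same-numbered vehicle and HRG arrays from their group means correlated at 0.12 to 0.25 in parental cells and 0.22 to 0.39 with #2. All 3 pairs were above 0.1 there, and 2 of 3 pairs each in NTC and #1 cells. The main model paired no arrays in any cells, and the block alternative used the replicate number over all 24 arrays. As alternatives, the replicate number entered as a block, filters, variance models and thresholds were changed, Rank Products was run with 100 permutations, and each array was left out. The model was tested on simulated data.

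Promoter sequences are those of RefSeq on GRCh38.p14, and 9 of the 10 genes matched, with 21 starts. MAPT is without one here. Python 3.11.15 and matplotlib 3.10.9 drew the plots. The annotation used for the probe sets gives no genome build, so no probe coordinates are printed.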

Additional observations from a re-analysis of the deposited data

Results flagged for a closer look

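The response of MAP2 to HRG in cells with P-Rex1 RNAi #2 differed from that in the control cells by a test of the difference itself (-0.50 on the log2 scale, SE 0.12, limma adjusted p = 0.0216). MAP2 was lower with HRG in all 3 arrays with #2 and higher in all 3 parental arrays. The adjusted p ran up to 0.0639 when single arrays were left out and was 0.0765 with NTC cells alone as the control.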

How the results depend on the processing

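The number of the 9 genes other than MAP1B past both thresholds was 0 in each of the 11 comparisons and 0 to 0 with any array left out. Without the fold threshold it was 6 for HRG in parental cells, 5 in NTC cells, 5 with #1, 4 with #2 and 1 for the change of the HRG effect with #2. Same-numbered vehicle and HRG arrays correlated above 0.1 in 2 of 3 pairs in NTC and in #1 cells, and in all 3 in parental and in #2 cells. Over any 2 groups, 66 of 84 same-numbered pairs were above 0.1 (median 0.19). The main model nevertheless took no numbers as pairs in any cells. The block leaves the folds as they are, so it could not change the count past both thresholds (0), and without the fold threshold it gave 6, 6, 5, 5 and 1 in the order above. For HRG in parental cells and with #2 it changed the call of MAPRE1 with #2 and of no other of the 9 genes. The block raised the count of all probe sets past the adjusted p for the change with #2 from 830 to 1375. For the calls of single genes among the 9, alternatives left the call as it was 258 times and lost it 28 times, and none reversed (MAP1B carries no call). The lost calls were those of MAP2 in parental cells and for the change with #2, MAP1A with #1, MAP1S with #2 and MAPT with #2. MAP2 in NTC cells passed with the block (adjusted p = 0.0188) and without the 4 arrays that stood apart (0.0147), and MAPRE1 with #2 passed with these (0.0458 and 0.0379) and with an intensity trend (0.0269). DCLK1 and the second STMN1 probe set were dim, and changes of the size seen in the other genes may not be detectable there. The causes of these shifts were not tested.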
